A study of Mus musculus with 6 samples.

Results

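Foxo1, Foxo3, Pik3ip1, Pik3r1, Ccng2, Bmf and Txnip are genes of the FoxO branch of insulin and PI3K signalling. Their transcripts were measured in forearm bones (radii and ulnae) of newborn 129sv mice, on 3 arrays from wild-type animals and 3 from mutant littermates with Tnni2del175k, a mutation of a fast skeletal muscle troponin gene. The labels give no zygosity, no sex and no number of animals per array, so the spread between arrays may be partly technical. All 7 genes were measured, each by 1 of the 8997 probe sets (5780 named genes in all). They were chosen by their higher intensities in the mutants in earlier results of these same arrays, so their differences are given below as a description, with no test.

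FoxO proteins are forkhead transcription factors. When insulin or IGF signalling is strong, PI3 kinase (PI3K) activates Akt, which phosphorylates FoxO factors and keeps them out of the nucleus; when it is weak, they enter the nucleus and switch on genes for cell cycle arrest, apoptosis, autophagy and resistance to oxidative stress. In bone, FoxO factors are known for limiting oxidative stress in osteoblasts and osteoclasts. Pik3ip1 and Pik3r1 encode proteins that can hold PI3K back, while Ccng2, Bmf and Txnip are known targets of FoxO factors in several cell types.

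Over all probe sets, 0 passed in limma at an adjusted p of 0.05 (0.0%), with 669 at an unadjusted p under 0.05 and 516 of these (77.1%) higher in the mutants. That share was 43.6% with array weights and 48.4% when wild-type replicate 1 was left out, so the prevailing direction rests on that array. The smallest adjusted p was 0.155. Wild-type replicate 1 stood apart, with a median intensity of 39.6 against 45.5 to 48.4 on the other arrays, and with 1205 probe sets under an intensity of 20 against 405 to 558. Every probe set reached 20 on at least 3 arrays, so a gene under 20 in all wild-type samples was present only if all mutant arrays reached 20. Tnni2 was at 102, 165 and 258 in the wild-type and 134, 127 and 198 in the mutants, which overlap (limma adjusted p = 0.943); the level of this transcript is no check of the labels, since the mutation is not labelled as a loss of it. Bone and cartilage were plainly represented, since the wild-type values of Col1a1 were 6552 to 7807 and those of Col2a1 2540 to 4002. In whole bone, more cells of a type and more RNA per cell cannot be told apart.

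The stretch before the transcription start is where FoxO factors are known to bind many of their targets. It was searched for the FoxO core motif TGTTTAC and its longer form TTGTTTAC, for the E-box CACGTG and for the CCAAT box, on both strands, in windows from 250 bases before to 50 bases after each start (RefSeq, GRCm38.p6). All 7 genes had a window, with 10 windows in all because Bmf has 3 listed starts and Pik3r1 has 2. A FoxO core motif lay in 1 of the 10 windows, that of Txnip, against 3.65% of all 32851 windows. The Txnip match was also the longer form, which 1.23% of windows hold. The 250 bases before the start of Txnip (chr3:96557707-96557956, plus strand) are shown with the FoxO motif and the CCAAT boxes in capitals. Those of Ccng2 (chr5:93267323-93267572, plus strand) and Pik3ip1 (chr11:3330481-3330730, plus strand) are shown beside it as promoters in which none of these motifs was found.

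Txnip: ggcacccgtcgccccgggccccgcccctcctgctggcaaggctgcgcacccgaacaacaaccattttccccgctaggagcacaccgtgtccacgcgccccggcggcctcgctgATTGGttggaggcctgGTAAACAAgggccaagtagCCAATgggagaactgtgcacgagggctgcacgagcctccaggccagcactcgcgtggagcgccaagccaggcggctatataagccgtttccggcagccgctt
Ccng2: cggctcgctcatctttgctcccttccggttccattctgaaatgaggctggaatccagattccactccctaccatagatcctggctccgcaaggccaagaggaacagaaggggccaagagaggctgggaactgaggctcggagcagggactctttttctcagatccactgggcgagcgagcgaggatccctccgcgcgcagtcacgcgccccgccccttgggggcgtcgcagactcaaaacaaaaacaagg
Pik3ip1: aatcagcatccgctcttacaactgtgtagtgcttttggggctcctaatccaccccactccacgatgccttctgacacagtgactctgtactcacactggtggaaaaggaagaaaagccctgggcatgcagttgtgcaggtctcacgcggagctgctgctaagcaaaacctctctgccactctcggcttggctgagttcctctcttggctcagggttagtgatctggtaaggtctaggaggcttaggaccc

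In Txnip the FoxO motif is read on the minus strand and begins 121 bases before the start, between CCAAT boxes that begin 137 and 102 bases before it. CCAAT boxes were present in 4 of the 7 genes (Foxo1, Pik3r1, Bmf and Txnip), against 41.1% of all 27025 genes with a window, and the E-box in 0 of 7 against 8.09%. Among 41 other listed FoxO target genes with a window, 5 held the core motif (Bbc3, Bcl2l11, Klf9, Sesn1 and Trim63), or 12.2%, against 4.05% of all genes. The other motifs were also more frequent in these 41 genes than in all genes. The E-box lay in 9 (22.0%, against 8.09%) and the CCAAT box in 22 (53.7%, against 41.1%). These are letter matches in a short window and say nothing about binding, nor does the absence of the FoxO motif in the other 6 genes.

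The FoxO factor genes Foxo1 and Foxo3 had mutant means about double those of the wild-type. Foxo4, also measured but not among the 7, was 1.28-fold higher with groups that overlapped. Foxo1 (probe set 10491962), the FoxO factor best known for control of metabolism, was at 17.7, 23.4 and 29.3 in the wild-type and at 46.0, 52.4 and 30.6 in the mutants. Mutant replicates 1 and 2 lay clearly above all wild-type arrays, while mutant replicate 3 exceeded wild-type replicate 3 by 1.33 intensity units. The mean was 23.5 ± 5.82 (SD, n = 3) in the wild-type and 43.0 ± 11.2 (SD, n = 3) in the mutants, a log2 difference of 0.87 ± 0.27 (moderated SE) or 1.83-fold. Foxo3 (probe set 10368888), a FoxO factor known for roles in stress resistance and cell survival, was at 31.9, 68.4 and 48.5 in the wild-type and at 138, 105 and 67.3 in the mutants. Its groups overlapped, because mutant replicate 3 lay just under wild-type replicate 2. The means were 49.6 ± 18.3 and 104 ± 35.6 (SD, n = 3 each), a log2 difference of 1.07 ± 0.34 or 2.10-fold. This was the widest spread among the 7 genes, with a pooled within-group SD of 0.54 on the log2 scale against a median of 0.28 over all probe sets.

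The PI3K genes showed the largest differences of the 7 genes, a rank that for Pik3r1 rests on wild-type values under 20. Pik3ip1 (probe set 10373740) encodes a transmembrane protein that binds the catalytic subunit of PI3K and lowers its activity. It was at 17.9, 19.7 and 14.9 in the wild-type and at 65.5, 56.8 and 30.3 in the mutants. The wild-type arrays lay close together and the mutant arrays did not, with mutant replicate 1 at 2.16 times mutant replicate 3. Its means of 17.5 ± 2.43 and 50.9 ± 18.4 (SD, n = 3 each) gave a log2 difference of 1.47 ± 0.29 or 2.78-fold. Since all wild-type values lay under 20, its presence among the probe sets fixed the order of the groups in advance. With values under 20 raised to 20 it was 2.42-fold higher.

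Pik3r1 (probe set 10411782) encodes the regulatory subunit p85 alpha, which stabilises the catalytic subunit and holds it inactive until a receptor is engaged; its shorter forms come from the same gene and were not told apart by 1 probe set. It was at 14.2, 21.8 and 17.7 in the wild-type and at 48.1, 47.9 and 30.8 in the mutants. Mutant replicates 1 and 2 were nearly equal, and all mutant arrays exceeded all wild-type arrays by at least 8.97 units. The means were 17.9 ± 3.81 and 42.3 ± 9.95 (SD, n = 3 each), a log2 difference of 1.23 ± 0.25 or 2.35-fold. It was 2.01-fold higher with values under 20 raised to 20, which was less than Bmf (2.12-fold) and Foxo3 (2.1-fold).

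The known FoxO targets Ccng2, Bmf and Txnip were tighter within groups than the FoxO and PI3K genes. Pik3ip1, which also stands in the FoxO target list, was among the wider genes, with a pooled within-group SD of 0.44 (log2). Ccng2 (probe set 10523297) encodes cyclin G2, an atypical cyclin that accompanies cell cycle arrest. It was at 11.3, 16.3 and 13.7 in the wild-type and at 31.2, 29.8 and 25.3 in the mutants. The dimmest of the 7, it lay under 20 on all wild-type arrays, so that here too the order was fixed in advance. Its means of 13.7 ± 2.52 and 28.8 ± 3.13 (SD, n = 3 each) gave a log2 difference of 1.08 ± 0.21 or 2.11-fold. With values under 20 raised to 20 the difference was 0.52, or 1.43-fold, so the size of this change rests on values whose background handling is not given in the sources used here.

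Bmf (probe set 10486112) encodes a BH3-only protein that binds BCL-2 family survival factors and promotes apoptosis. It was at 23.9, 27.0 and 22.7 in the wild-type and at 55.3, 51.8 and 48.9 in the mutants. On the log2 scale its groups were the most clearly separated of the 7, with the lowest mutant array 0.86 above the highest wild-type array. In linear intensity this gap was 21.9 units, less than the 66.7 units of the brighter Txnip. No value of Bmf lay under 20. Its means were 24.6 ± 2.24 and 52.0 ± 3.16 (SD, n = 3 each), a log2 difference of 1.09 ± 0.19 or 2.12-fold, and its pooled within-group SD of 0.11 (log2) was the smallest of the 7.

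Txnip (probe set 10494428) encodes thioredoxin-interacting protein, an arrestin-domain protein that inhibits thioredoxin and limits glucose uptake. It was at 216, 271 and 301 in the wild-type and at 459, 367 and 471 in the mutants. All mutant arrays lay above all wild-type arrays, and mutant replicate 3 was here the highest of the group. The means were 263 ± 42.9 and 432 ± 56.8 (SD, n = 3 each), a log2 difference of 0.72 ± 0.21 or 1.65-fold, the smallest of the 7. Its values on all arrays were far above 20, so that raising dim values to 20 left it as it was. Ccng2 was then the lower of these genes, at 1.43-fold, so the rank of Txnip depends on dim values.

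**Figure D1:**
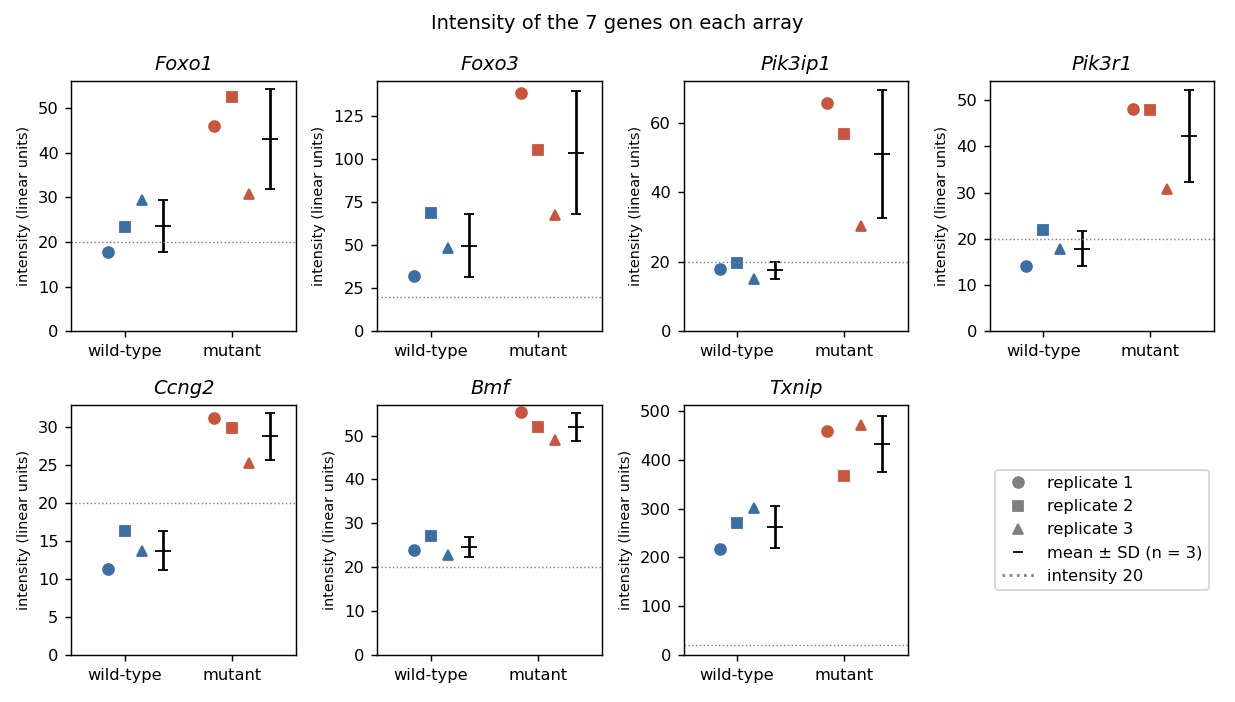
Intensity (linear units, vertical axis from 0 in each panel) of the 7 genes on the 3 wild-type (blue) and 3 mutant (red) arrays, with symbols for replicates, black bars for the mean ± SD and a dotted line at an intensity of 20. Mutant replicate 3 (red triangle) is the lowest mutant array in every gene except Txnip, and the Foxo3 groups overlap.

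In 6 of the 7 genes all mutant arrays exceeded all wild-type arrays, an order found in 826 of 8997 probe sets (9.18%). In 4 of those 6 the difference was also at least 2-fold, which with that order held for 67 probe sets (0.745%). Since the genes were picked for these differences, nothing is read from either share. The median log2 difference of the 7 was 1.08, against 0.045 over all probe sets. Mutant replicate 3 was the lowest mutant array in 6 of the 7 genes, while over all probe sets it was lowest in 30.1%. Wild-type replicate 1 was the lowest wild-type array in 5 of the 7, against 68.3% of all probe sets. Without wild-type replicate 1 the log2 differences were 0.68 for Foxo1, 0.79 for Foxo3, 1.496 for Pik3ip1, 1.08 for Pik3r1, 0.94 for Ccng2, 1.07 for Bmf and 0.59 for Txnip. Without mutant replicate 3 they were 1.09 for Foxo1, 1.35 for Foxo3, 1.81 for Pik3ip1, 1.45 for Pik3r1, 1.17 for Ccng2, 1.13 for Bmf and 0.66 for Txnip. Adding an offset of 16 to all intensities, which compresses the differences of dim genes by construction, gave 0.57 for Foxo1, 0.96 for Pik3ip1, 0.77 for Pik3r1, 0.59 for Ccng2 and 0.75 for Bmf.

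**Figure D2:**
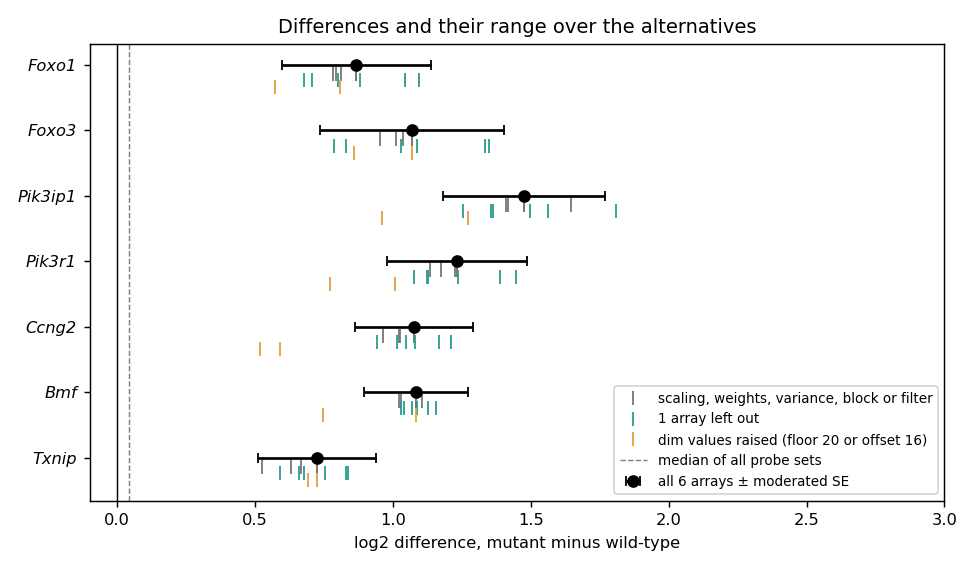
Log2 difference between mutant and wild-type means (horizontal axis) for each of the 7 genes, with the moderated SE as bars and ticks for the value under each alternative. All ticks lie above 0, the lowest being 0.52 for Ccng2 with values under 20 raised to 20, and the dashed line marks the median of all probe sets.

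The genes followed each other unequally over the 6 arrays. Likeness was measured as the root mean square difference between log2 profiles that were each centred on their own mean, so that a smaller value means more alike. Ccng2 and Bmf were the most alike pair (0.13), followed by Pik3r1 and Ccng2 (0.15) and by Foxo3 and Pik3r1 (0.21). These values include the difference between the groups for which the genes were chosen. With each group centred on its own mean, Pik3r1 and Ccng2 (0.126) were as close as Ccng2 and Bmf (0.128). Foxo1 and Foxo3 were less alike (0.33), with centred levels of 0.57 and 1.01 on mutant replicate 1, -0.08 and -0.50 on wild-type replicate 3, and -0.41 and -0.00 on wild-type replicate 2. The least alike pair was Pik3ip1 and Txnip (0.59), whose mutant replicate 3 was the lowest mutant array in Pik3ip1 and the highest in Txnip. The mean centred level of the 7 genes was -0.79, -0.32 and -0.50 on wild-type replicates 1 to 3 and 0.76, 0.63 and 0.22 on mutant replicates 1 to 3. Relative to the median of all probe sets these were -0.55, -0.38 and -0.57, and 0.75, 0.63 and 0.14. The low level of wild-type replicate 1 was thus shared in part with the whole array, and that of mutant replicate 3 was not.

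By the same measure, the genes nearest to the mean profile of the 7 among 5563 other named genes were Snrk (0.053), Firre (0.061), Cytl1 (0.062), Klhl6 (0.093), Nek7 (0.11), Irf2 (0.12), Ghr (0.14) and Hsd17b11 (0.14), against a median of 0.56 over all these genes. Snrk, which encodes a kinase of the AMPK family, was at 27.1, 40.2 and 35.0 in the wild-type and at 86.6, 71.3 and 56.0 in the mutants. Ghr, for the growth hormone receptor, was at 15.0, 23.2 and 17.2 and at 38.5, 35.4 and 25.6. Nearness reflects the difference between the groups as much as the order of the arrays within them. For single genes, the nearest were Lama2 (0.10) and Chodl (0.13) to Foxo1, Igf1r (0.063) and Tgfbr3 (0.089) to Foxo3, Hif3a (0.19) and Gabarapl1 (0.20) to Pik3ip1, and Snrk (0.13) and Itgbl1 (0.14) to Pik3r1. To Ccng2 they were Firre (0.062) and Klhl6 (0.068), to Bmf Klhl6 (0.14) and Zfyve1 (0.15), and to Txnip Fzd7 (0.080) and Gid4 (0.097). Igf1r, which encodes the receptor upstream of PI3K, thus had the profile most like that of Foxo3, at 32.0, 71.5 and 53.7 in the wild-type and 147, 102 and 72.7 in the mutants. Of the nearest genes, Firre, Klhl6, Irf2, Chodl, Hif3a and Gid4 lay under 20 on all wild-type arrays. The order of their groups was therefore fixed in advance, and nothing is read from their nearness.

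**Figure D3:**
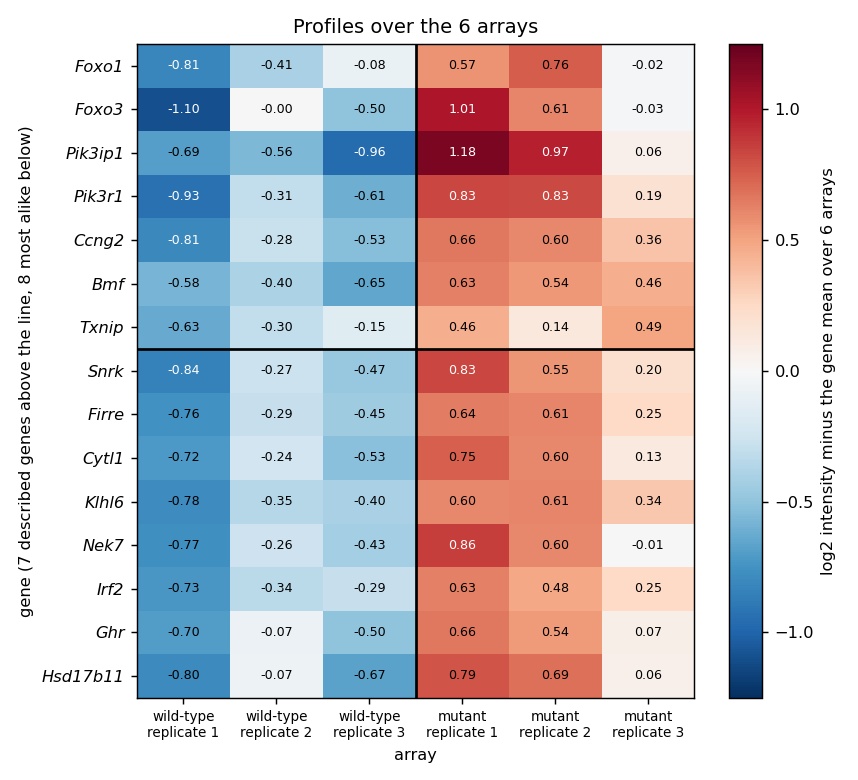
Log2 intensity minus each gene's own mean over the 6 arrays (colour and printed value; columns are arrays, rows are genes) for the 7 genes above the line and the 8 genes nearest to their mean profile below it. Mutant replicates 1 and 2 carry the highest values in most rows and mutant replicate 3 lies nearer to 0, except in Txnip, where it is the highest at 0.49.

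The rest of the pathway was described through 10 lists of genes, which held 157 genes besides the 7, of which 94 were measured. None of the 94 passed in limma (0 higher, 0 lower), and 25 had an unadjusted p under 0.05, against 669 of all 8997 probe sets. Means in the mutants were higher in 68 and lower in 26, where 56.7% of all probe sets were higher. In 20 of the 94 (21.3%) all mutant arrays lay above all wild-type arrays, against 9.18% of all probe sets. Among these were Depp1 and Rbl2, whose wild-type values all lay under 20, so that their order was fixed in advance. The median log2 difference was 0.35, against 0.045 over all probe sets. The lists were drawn up with earlier results known and some genes stand in several of them.

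Receptors and adaptors of insulin and IGF signalling had higher mutant means in 7 of 9, with a median log2 difference of 0.66. Gab1, a docking protein that recruits PI3K to receptors, was at 43.2, 88.8 and 55.2 in the wild-type and at 209, 127 and 92.2 in the mutants, a log2 difference of 1.18 ± 0.35 (limma adjusted p = 0.591). Igf1r was at 1.05 ± 0.34, the docking protein gene Gab2 at 0.58 ± 0.23, and all mutant arrays of these 3 genes exceeded all wild-type arrays. The insulin receptor gene Insr (0.73 ± 0.32) and the substrate gene Irs2 (0.66 ± 0.43) overlapped between groups, as did Irs1 (0.72 ± 0.31). A second, dimmer probe set of Insr was at 1.06 ± 0.33 with groups that did not overlap. Grb2, Shc1 and Sh2b1, adaptors to the Ras branch and others, were at -0.29, 0.12 and -0.02. Insr was at 0.42, Irs1 at 0.41 and Irs2 at 0.31 without wild-type replicate 1. Gab1 was then at 0.94, Igf1r at 0.73 and Gab2 at 0.52. Without mutant replicate 1, Gab1 was at 0.86, Igf1r at 0.79 and Gab2 at 0.40. The median of this list was 0.41 when wild-type replicate 1 was left out and 0.40 when mutant replicate 1 was.

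Of the other PI3K subunits, Pik3ca, which encodes the catalytic subunit p110 alpha, was at 22.4, 41.5 and 46.4 in the wild-type and at 67.2, 65.5 and 52.6 in the mutants (0.81 ± 0.29, limma adjusted p = 0.638). Pik3r2, for the regulatory subunit p85 beta, lay the other way at -0.24 ± 0.22 with groups that overlapped (adjusted p = 0.787). The measured regulatory subunit genes thus had means on opposite sides of the wild-type level. The median of all 3 measured subunits, Pik3r1 included, was 0.81, and 0.48 without wild-type replicate 1, which was then the value of Pik3ca; it was 0.28 over the 2 genes left without the dimmest 25% of probe sets.

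Among brakes of PI3K and Akt besides Pik3ip1, 4 of 6 were higher (median 0.42). The phosphoinositide phosphatase gene Inpp5k was at 0.70 ± 0.31, the receptor-binding adaptor gene Grb10 at 0.53 ± 0.27 and the blood-cell lipid phosphatase gene Inpp5d at 0.44 ± 0.27 (limma adjusted p = 0.669, 0.708 and 0.724). In Inpp5k and Inpp5d mutant replicate 3 lay within or below the wild-type range, and in Grb10 the groups did not overlap. Grb10 was at 0.22 without wild-type replicate 1, and Inpp5d at 0.19 and Inpp5k at 0.45 without mutant replicate 1. Inppl1, another lipid phosphatase gene, was at -0.02, and the pseudokinase gene Trib2 at -0.14. With Pik3ip1 the median of the list was 0.44, and it was 0.22 when wild-type replicate 1 was left out and 0.27 when mutant replicate 1 was.

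Kinases of the Akt and mTOR module were nearer to the median of all genes, at a median of 0.09 over 16 genes. Akt1 was at 165, 183 and 241 in the wild-type and at 179, 168 and 195 in the mutants (-0.11 ± 0.21), and Akt2 was at 0.10 ± 0.23; Akt1 was at 0.05 without wild-type replicate 3, and Akt2 at -0.11 without wild-type replicate 1. The genes of smallest p were Tsc1, for a brake of mTORC1 (0.62 ± 0.22), Pdpk1, for the kinase that activates Akt (0.62 ± 0.22), and Deptor, for an mTOR inhibitor (0.65 ± 0.29), with limma adjusted p-values of 0.638, 0.644 and 0.669. The groups overlapped in Deptor, which was at 0.40 without mutant replicate 1 and at 0.43 without wild-type replicate 1. In Tsc1 and Pdpk1 they did not overlap. Tsc1 was at 0.455 without mutant replicate 1, and Pdpk1 at 0.47 without wild-type replicate 1. The sign of the list's median was not stable: it was -0.002 after quantile normalization, -0.049 with array weights and -0.045 without wild-type replicate 1.

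Regulators of FoxO activity were also near the background, at a median of 0.09 over 14 genes, and at -0.036 without wild-type replicate 1. The 14-3-3 proteins, which hold phosphorylated FoxO in the cytoplasm, were represented by 6 genes between -0.30 (Ywhag) and 0.14 (Ywhaz, whose dimmer probe set was at -0.12). The genes of smallest p were those for the coactivators Crebbp (0.68 ± 0.33) and Ep300 (0.53 ± 0.28) and for the deubiquitinase Usp7 (0.50 ± 0.26), with limma adjusted p-values of 0.698, 0.708 and 0.708. Without wild-type replicate 1 these were at 0.30 for Crebbp, 0.28 for Ep300 and 0.23 for Usp7. Foxo4, the third FoxO factor gene measured, was at 25.8, 35.96 and 41.4 in the wild-type and at 45.6, 35.0 and 50.3 in the mutants (0.35 ± 0.24), with mutant replicate 2 below wild-type replicates 2 and 3, and was at 0.16 without wild-type replicate 1.

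Known FoxO target genes other than the 4 among the 7 had higher mutant means in 25 of 28, with a median log2 difference of 0.67. The genes of smallest p were Depp1, an autophagy regulator (2.08 ± 0.26), Ddit4, an inhibitor of mTORC1 (2.14 ± 0.33), and Trp53inp1, a stress protein that acts in autophagy (2.19 ± 0.46), with limma adjusted p-values of 0.155, 0.231 and 0.42. The wild-type values of Depp1 lay under 20 throughout (9.44, 8.37 and 12.9, against 58.4, 39.1 and 33.6). Sesn1, for a stress-induced sestrin, was at 22.8, 44.5 and 23.0 in the wild-type and at 231, 134 and 42.8 in the mutants (1.94 ± 0.54), and overlapped through mutant replicate 3. Cdkn1b, which encodes the cell cycle inhibitor p27 and is a textbook FoxO target, was among the tighter genes, at 36.2, 39.0 and 41.3 and at 65.6, 63.1 and 57.3 (0.67 ± 0.19, adjusted p = 0.571). The exceptions in direction were Klf4 (-0.64 ± 0.32), Klf2 (-0.35 ± 0.23) and Cpt1a (-0.20 ± 0.24); in Klf4 all mutant arrays lay below all wild-type arrays, with a difference of -0.24 when wild-type replicate 2 was left out.

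**Figure D4:**
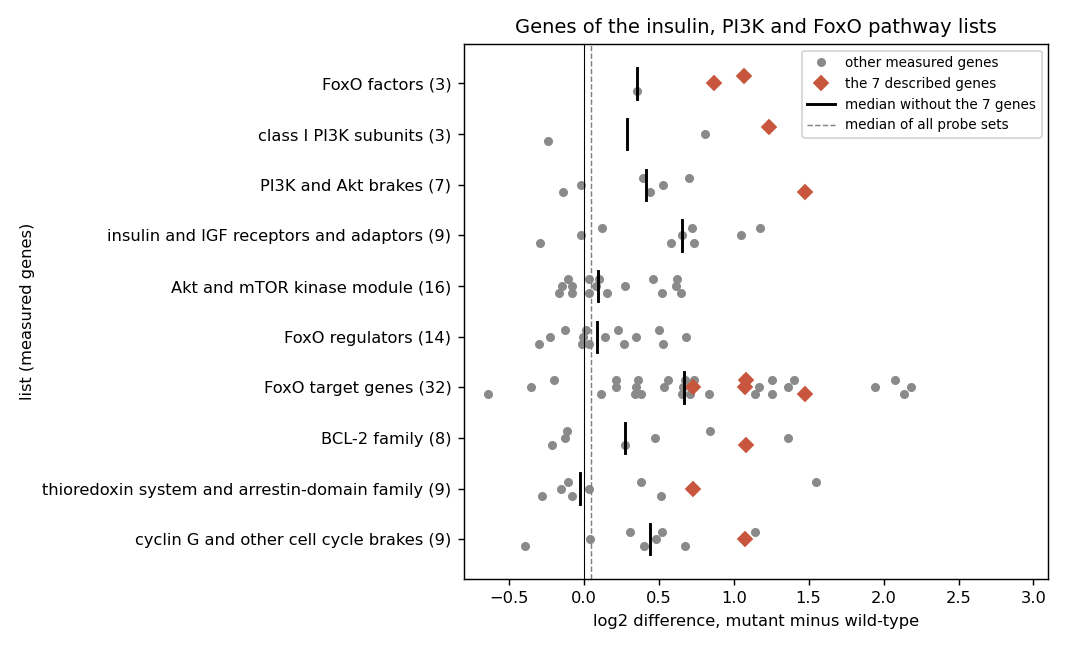
Log2 difference between mutant and wild-type means (horizontal axis) of each measured gene in the 10 pathway lists (rows, with the number of measured genes), the 7 genes as red diamonds, other genes as grey points and the median without the 7 as a black bar. The bars of the receptor (0.66) and FoxO target (0.67) lists lie farthest to the right, and those of the Akt and mTOR module and the FoxO regulators (0.09 each) near the dashed median of all probe sets.

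The relatives of Bmf, Txnip and Ccng2 did not all have higher means in the mutants. In the BCL-2 family, 4 of 7 other genes were higher (median 0.27), with the mitophagy gene Bnip3 at 1.36 ± 0.47 (0.71 ± 0.23 in its dimmer probe set) and the survival gene Bcl2l1 at 0.84 ± 0.30. The survival gene Mcl1 was at 0.47 ± 0.36, and the pro-apoptotic Bad, Hrk and Bak1 were at -0.21, -0.11 and -0.13. Without wild-type replicate 1, Mcl1 was at 0.08 and Bnip3 at 0.76. Bcl2l1 overlapped between groups through mutant replicate 3 and was at 0.58 without mutant replicate 1. The median of this list with Bmf was 0.37, and it was 0.067 without wild-type replicate 1 and 0.61 without wild-type replicate 2; it was 0.84 over the 5 genes left without the dimmest 25% of probe sets. Among relatives of Txnip, the arrestin-domain gene Arrdc3 was at 17.4, 39.6 and 30.4 in the wild-type and at 124, 93.6 and 45.6 in the mutants (1.55 ± 0.40), and Arrdc4 was lower at -0.28 ± 0.21. Mlxip, which encodes the glucose-sensing transcription factor MondoA that induces Txnip, was at 0.51 ± 0.25, and the glucose transporter gene Slc2a1 at 0.38 ± 0.28. Without wild-type replicate 1 Mlxip was at 0.30 and Slc2a1 at 0.17. Thioredoxin itself, Txn1, was at -0.08 ± 0.20 and its reductase gene Txnrd1 at -0.15 ± 0.19. The median of this list was -0.02 without Txnip and 0.03 with it, its sign changed under several alternatives, and it was 0.38 over the 7 genes left without the dimmest 25% of probe sets. Of the other cell cycle brakes 7 of 8 were higher (median 0.44), with Rbl2, for the pocket protein p130, at 1.14 ± 0.34 from wild-type values all under 20, and Btg1, an antiproliferative gene, at 0.48 ± 0.29. Ccng1, the nearest relative of Ccng2, was at 0.40 ± 0.37, and Cdkn1c, for p57, at -0.39 ± 0.36. Without wild-type replicate 1 Ccng1 was at 0.005 and Btg1 at 0.28, and without mutant replicate 1 Cdkn1c was at 0.002. The median of this list with Ccng2 was 0.48, and it was 0.155 when wild-type replicate 1 was left out and 0.31 when mutant replicate 3 was.

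Glucocorticoid-induced genes, of which Klf9 also stands in the FoxO target list and Sgk1 in the Akt and mTOR list, had higher mutant means in 11 of 11. Of all probe sets 56.7% were higher. In 3 of the 11 all mutant arrays lay above all wild-type arrays, against 9.18% of all probe sets, and 0 passed in limma. Fkbp5 was at 14.6, 35.97 and 26.3 in the wild-type and at 225, 214 and 34.6 in the mutants, and Tsc22d3 at 18.6, 35.1 and 24.5 and at 166, 155 and 49.6, with mutant replicate 3 lowest as in 6 of the 7 genes. The mean level of this list relative to all probe sets was -0.86, -0.12 and -0.95 for the wild-type and 1.30, 1.08 and -0.43 for the mutants (log2). Mutant replicate 3 thus lay below wild-type replicate 2. The mean level of the 7 genes did not overlap between the groups. These 7 genes were chosen for higher mutant values, so nothing is read from that contrast. Of 7 osteoclast markers 4 were measured and 0 passed in limma; all 4 had higher mutant means, and their summed intensity was 594 to 1030 in the wild-type and 1180 to 1690 in the mutants. Epidermal markers (5 of 7 measured) had lower mutant means in all 5, with a median log2 difference of -1.70, and 0 passed in limma. They varied widely within both groups, summing to 37.5 to 838 in the wild-type and 41.9 to 250 in the mutants. They were high on wild-type replicates 1 and 2, raised on mutant replicate 2 and low on the other 3 arrays, down to 4.71. Skeletal muscle markers (9 of 9 measured) summed to 3810 to 7710 and 4670 to 6510, and bone matrix markers (5 of 9) to 11300 to 14200 and 13100 to 14300. Cartilage (8 of 8), myeloid (5 of 7), endothelial (3 of 5), erythroid (2 of 5) and adipocyte (1 of 5) markers had sums that overlapped between the groups, and none of the measured markers was at 0. The part of these genes and cell types in the differences of the 7 genes was not tested.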

How the data were processed

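RNA of 6 bone samples was hybridised to Affymetrix whole-transcript arrays, after amplification and biotin labelling, per the labels' protocols. The authors deposited linear intensity values, 1 per probe set and array; how they corrected background, summarised probes and scaled arrays is not given in the sources used here. All probe sets in the table are at 20 or more on 3 or more arrays, a filter the labels do not describe. Of 8997 probe sets, 6398 had exactly 1 symbol in the platform annotation, 576 several and 2023 none; 6388 matched a RefSeq gene by Entrez identifier and 0 symbols changed. For 327 genes with several probe sets the brightest stood for the gene. Intensities were taken to log2 without a filter, and 2 group means were fitted across all probe sets with lmFit and eBayes of limma 3.58.1 (R 4.3.3), two-sided, with Benjamini-Hochberg adjustment at 0.05; the procedure was tested on simulated data. Group levels are mean ± SD of linear intensities, and folds are 2 to the power of the log2 difference. Python 3.11.15 with pandas 2.3.3 made the tables.

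The 7 genes and the lists were chosen with earlier results of these data known, so no result on them is independent support. Named in each list were the 3 non-member genes of smallest p, with Foxo4, Akt1, Insr, Igf1r, Irs2 and Bcl2l11 where measured (Bcl2l11 has no value here, and 1 further gene of the rule is not reported here); other list genes were named after their values were seen. Nearest genes were the 8 closest to the mean profile and 2 per gene, leaving out predicted genes, olfactory receptors and small RNAs. The number of arrays limits the precision.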

Additional observations from a re-analysis of the deposited data

How the results depend on the processing

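The median log2 difference of the 7 genes was 1.08 with all arrays. It ranged from 0.94 to 1.21 with each array left out in turn and was 0.75 with an offset of 16, and none of the 7 changed direction under any alternative run. The genes whose groups did not overlap numbered 6 to 7 over the left-out arrays. Leaving out an array cannot make separated groups overlap, so this number could not fall below 6. Nor could those 6 genes change direction with an array left out, a floor or an offset, so their stable direction shows nothing further. Over all probe sets limma called 0, against 4 with array weights and 0 to 15 with each array left out. Of the 94 other pathway genes it called 0, against 2 with array weights and 0 to 4 with each array left out. Among the left-out arrays, only leaving out mutant replicate 3 gave calls. The cause of these changes was not tested. With the replicate number as a block, limma called 0 probe sets, with 681 against 669 at an unadjusted p under 0.05, and the median of the 7 stayed at 1.08. The labels do not say that a number marks a litter, and the deviations of same-numbered arrays from their group means correlated at -0.11, -0.03 and 0.32, so the numbers were not treated as pairs. Of probe sets with an unadjusted p under 0.05, 77.1% were higher in the mutants, but 62.3% after quantile normalization, 66.0% after median centring, 43.6% with array weights, 65.3% with the block and 48.4% without wild-type replicate 1.

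List medians that turned negative were those of the Akt and mTOR module (0.091; -0.002 after quantile normalization, -0.049 with array weights, and -0.045 to 0.189 over the left-out arrays, lowest without wild-type replicate 1), of FoxO regulators (0.086; -0.036 to 0.207 over the left-out arrays, with the same lowest) and of the thioredoxin list (0.033; -0.024 after quantile normalization, -0.023 after median centring, -0.088 with array weights, and -0.089 to 0.102 over the left-out arrays, negative when wild-type replicate 1 or mutant replicate 3, at -0.027, was left out). Pik3r1 and Ccng2 have no value when the dimmest 25% of probe sets are left out.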
